A study of Homo sapiens with 22 samples.

Results

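Close clusters of BMAL1 peaks of low to moderate score were examined in THP-1 cells, a human line of monocytic leukaemia with the fusion gene MLL-AF9. Of 9584 BMAL1 peaks in the authors' list, 928 were chosen (9.68%). Each scored below 40, lay outside chromosome 19, and had its midpoint within 5000 bp of the midpoint of another BMAL1 peak of any score. They are called clustered peaks here. The comparison set was the 7846 peaks with the same limits of score and chromosome and no BMAL1 midpoint within 5000 bp, called isolated peaks. The 376 peaks of 40 or more outside chromosome 19 could link clusters but were not counted as clustered peaks. The 434 peaks of chromosome 19 were left out. The members were thus chosen by measured values, namely the BMAL1 scores and the positions of the BMAL1 peaks, so their number, scores and spacing are given as descriptions with no test. Overlap with CLOCK peaks comes from a second library, which the choice did not use. Its list held only 269 peaks against 9584 for BMAL1, so only a small share of all BMAL1 peaks could be overlapped.

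The study sequenced DNA from chromatin (ChIP-seq) in 22 libraries, 15 of NOMO-1 and 7 of THP-1 cells, both MLL-AF9 leukaemia lines. The libraries were labelled BMAL1, CLOCK, IgG or input, or, in NOMO-1 alone, biotin HoxA9 and biotin BirA. The values below come from 1 BMAL1 library (antibody ab3350) and 1 CLOCK library (antibody ab3517) of untreated THP-1 cells. Both were fixed with 2 mM EGS, a protein crosslinker, for 30 minutes and 1% formaldehyde for 30 minutes. The other 20 libraries, including IgG and input, were not analysed here, so the level of these regions without either antibody is not known. With 1 library per factor no value has a replicate error, and sequencing depth is unknown from the peak lists. The score is the authors' own value for each peak, in steps of 0.5, with no stated unit. It is used only to describe and rank peaks within a list. Positions are given in build hg19. No gene annotation or genome sequence of that build was used here, so the genes at these regions and the bases under the peaks are not given.

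BMAL1 (ARNTL) and CLOCK are transcription factors of the basic helix-loop-helix PAS family. They bind E-box sequences as a heterodimer and activate, among others, the Period and Cryptochrome genes, whose proteins repress them in turn. Several separate BMAL1-CLOCK sites in 1 gene are known from clock output genes such as Dbp, where the promoter and introns hold E-boxes.

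The clustered peaks were almost entirely pairs. They formed 464 clusters, of which 443 held 2 BMAL1 peaks, 19 held 3 and 2 held 4. In 441 clusters every peak scored below 40. In the other 23, 24 clustered peaks were joined to 23 peaks of 40 or more, which scored between 40 and 67 (median 50.5). Between 40 and 44 Mb of chromosome 1 lay 1 clustered peak, but few peaks below 40 of either kind lay there. Leaving this block out took clustered peaks from 928 to 927 and isolated peaks from 7846 to 7837. Over all chromosomes examined, clustered peaks made up 10.6% of peaks below 40, so this count is no result about the block. A further 7 clusters consisted of peaks of 40 or more alone and held no clustered peak.

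Neighbouring peaks were most often 1 to 2 kb apart. The 487 gaps between neighbouring midpoints inside clusters had a median of 2288 bp, quartiles at 1453.5 and 3625 bp, and extremes of 706 and 4974 bp. Counted over all BMAL1 peaks outside chromosome 19, 171 neighbouring pairs lay more than 1000 and up to 2000 bp apart. The next steps of 1000 bp held 112, 92 and 87 pairs. Between 5 and 10 kb the steps held a median of 101 pairs and at least 89, so from 3 to 5 kb pairs were about as frequent as just beyond the joining distance. The step from 1 to 2 kb held more pairs than any other step up to 20 kb. The first step, up to 1000 bp, held 32 pairs and none closer than 706 bp. Every clustered peak spanned 397 bp with both end positions counted, so peaks this close do not overlap. With peaks of 40 or more removed, the first 5 steps held 30, 161, 105, 85 and 83 pairs, the same order.

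**Figure D1:**
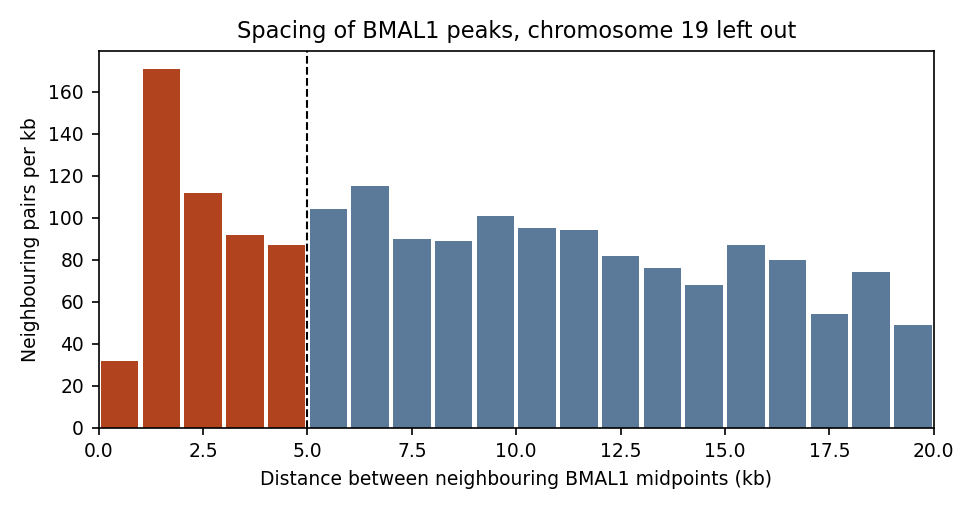
Number of neighbouring BMAL1 pairs (vertical axis, pairs per kb) by the distance between their midpoints (horizontal axis, kb), with chromosome 19 left out and peaks of any score. Red bars lie within the joining distance of 5 kb (dashed line) and blue bars beyond it. The bar from 1 to 2 kb, with 171 pairs, is the tallest, and the bars from 3 to 5 kb, with 92 and 87, are level with those from 5 to 10 kb.

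The largest clusters held 4 peaks. The first, on chromosome 7, spanned 11007 bp, and its 4 peaks all scored well above the median of 15.5 for clustered peaks. They were chr7:92264288-92264684 with a score of 38.5, chr7:92268839-92269235 with 27, chr7:92271250-92271646 with 30.5 and chr7:92274898-92275294 with 27.5. Gaps between their midpoints were 4551, 2411 and 3648 bp. The second, on chromosome 9, had nearly the same span, 10390 bp, with much lower scores. Its peaks were chr9:79200631-79201027 with 11.5, chr9:79203128-79203524 with 11, chr9:79206478-79206874 with 15.5 and chr9:79210624-79211020 with 19. The mean score was 30.9 in the first cluster and 14.2 in the second, so a large number of peaks came with either high or low scores.

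Of the clusters of 3 in which every peak scored below 40, the 8 with the highest summed scores were named by the rule. On chromosome 8, chr8:27185605-27186001 scored 34.5, chr8:27190403-27190799 scored 28 and chr8:27192005-27192401 scored 33.5. This cluster had the highest mean of the 8, 32.0. On chromosome 20, chr20:54994020-54994416 scored 29.5, chr20:54997808-54998204 scored 28 and chr20:55002713-55003109 scored 19.5. On chromosome 5 there were 2 such clusters, each with a pair of peaks of nearly equal score and a weaker peak at the higher coordinate. In the first, chr5:133838939-133839335 scored 28.5, chr5:133841887-133842283 scored 29 and chr5:133844906-133845302 scored 13. In the second, chr5:180524133-180524529 scored 28, chr5:180528806-180529202 scored 29 and chr5:180531118-180531514 scored 10, the lowest score in the list.

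The other 4 of these 8 clusters lay on chromosomes 1, 8 and 13. On chromosome 1, the cluster chr1:155910372-155916673 had scores of 23, 29 and 18 in order of position, and chr1:223349006-223354756 had 22, 22 and 14. The cluster chr8:18697137-18704727 had 20.5, 22.5 and 18.5. On chromosome 13, chr13:114828239-114834886 had 19, 25.5 and 14.5. In each of these 4 the peak at the highest coordinate was the weakest, and in the chromosome 8 cluster the scores lay closest together. The remaining 11 clusters of 3 spanned 3311 to 8044 bp, with clustered peaks scoring 10 to 29 and a median of 13.5. Of the 21 clusters of 3 or 4, 1 held a peak of 40 or more, a share near that of all clusters, 23 of 464. This peak was chr17:74044130-74044526 with 50.5. It was followed by chr17:74045797-74046193 with 29 and chr17:74049475-74049871 with 13.

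None of the 21 clusters of 3 or 4 peaks overlapped a CLOCK peak. A count of 0 allows, by a limit of 3 counts, a share of up to 14.3% of such clusters, or 4.69% of the 64 clustered peaks in them, counting error only. Among all 8774 peaks below 40 outside chromosome 19 the share with CLOCK was 1.23%, below that limit for peaks. The count of 0 is therefore near the background and is no result about large clusters. In the 10 clusters named above, the nearest CLOCK midpoint was 180670 bp away at the least and 9684627 bp at the most. With just 269 CLOCK peaks in the genome, long distances are usual for any region, and no comparison set was measured.

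CLOCK peaks overlapped 9 clustered peaks, which is 0.970% of 928 (exact 95% interval 0.444 to 1.83%). In every case the cluster was a pair of which 1 peak was overlapped and 1 was not. The gaps in these pairs were at least 991 bp, too wide for 1 CLOCK peak of at most 533 bp to reach both. No 2 CLOCK midpoints lay closer than 8974 bp, so at these gaps no other outcome was possible. An overlap of at least 1 bp was counted. Among all 9584 listed BMAL1 peaks the share was 1.46%, and among the 8774 peaks below 40 outside chromosome 19 it was 1.23%. All these shares are set against a CLOCK list of just 269 peaks. The share in clustered peaks is therefore near the background and is no result about them. Isolated peaks overlapped a CLOCK peak in 99 of 7846 cases (1.26%, exact 95% interval 1.03 to 1.53%). Clustered minus isolated was -0.29 percentage points, with a Newcombe 95% interval from -0.83 to 0.60, which holds 0. These intervals cover counting error only and treat peaks as independent, which neighbours in a cluster are not. Of 13 other settings, 5 gave a difference above 0 in place of below it.

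The unit of counting changed the side on which the difference fell. Taken per cluster, 9 of 464 clusters held an overlapping peak (1.94%, exact 95% interval 0.891 to 3.65%). That is 0.68 percentage points above the share of isolated peaks, with an interval from -0.28 to 2.40 that again holds 0. A cluster offers at least 2 peaks to CLOCK where an isolated peak offers 1, so the per-cluster share is bound to exceed the share per clustered peak.

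Isolated peaks of higher BMAL1 score overlapped CLOCK more often, so shares were also set side by side within bands of score. From 10 to below 15, 4 of 419 clustered peaks (0.955%) and 39 of 4280 isolated peaks (0.911%) were overlapped. From 15 to below 20 the counts were 3 of 243 (1.23%) and 20 of 1810 (1.10%). In these 2 bands each set's share lay inside the interval of the other. From 20 to below 30 they were 2 of 212 (0.943%) and 24 of 1329 (1.81%), and from 30 to below 40 they were 0 of 54 and 16 of 427 (3.75%, exact 95% interval 2.16 to 6.01%). In these upper bands the clustered share was the lower, but 0 of 54 allows a share of up to 5.56% by the limit of 3 counts, beyond the isolated share. With the isolated share of each band, 12.4 clustered peaks would have been overlapped, against the 9 counted.

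**Figure D2:**
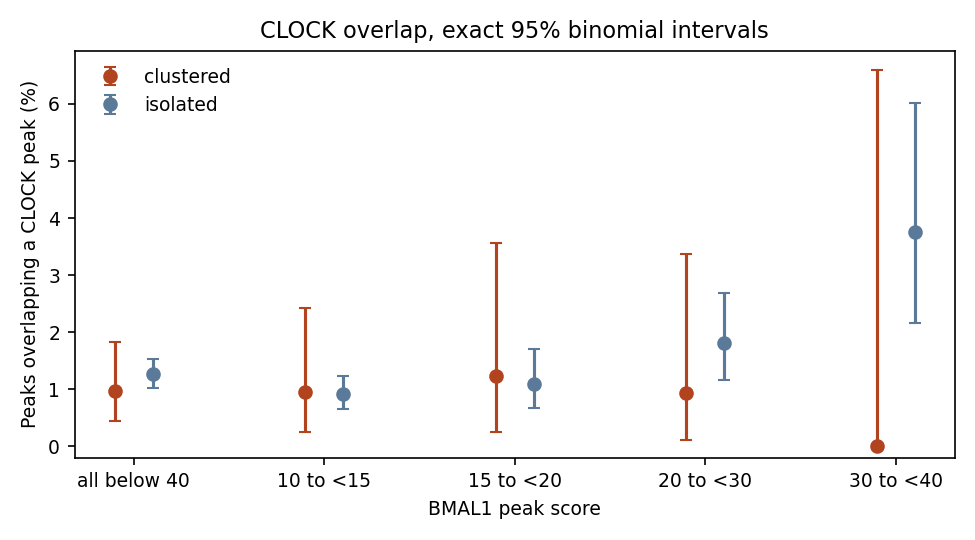
Share of BMAL1 peaks that overlap a CLOCK peak (vertical axis, percent) for clustered (red) and isolated (blue) peaks, over all scores below 40 and within 4 bands of BMAL1 score (horizontal axis). Points are shares and bars are exact 95% binomial intervals. The intervals of both sets overlap in every band, and the isolated share is highest, 3.75%, in the band from 30 to below 40.

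The 9 pairs with a CLOCK peak had the following scores. On chromosome 2, the CLOCK peak scored 41 and covered chr2:239197407-239197803, a BMAL1 peak of 17, while its neighbour chr2:239196207-239196603 scored 11. On chromosome 1, CLOCK scored 39 at chr1:160070861-160071257, a BMAL1 peak of 16.5, beside chr1:160072603-160072999 with 11.5. In both pairs the BMAL1 peak under CLOCK was the higher of the 2 and the midpoints of CLOCK and BMAL1 were at most 14 bp apart.

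On chromosome 17, CLOCK scored 38 at chr17:75316847-75317243, a BMAL1 peak of 13.5, and its neighbour chr17:75315364-75315760 scored 16.5. On chromosome 8, CLOCK scored 32.5 at chr8:28258534-28258930, with BMAL1 at 20 and the neighbour chr8:28256216-28256612 at 15.5. On chromosome 11, CLOCK scored 30.5 at chr11:45881199-45881595. There the overlapped BMAL1 peak, at 21, had the highest BMAL1 score of the 9, yet its neighbour chr11:45879499-45879895 was higher still at 33. On chromosome 3, CLOCK scored 25 at chr3:196359044-196359440, a BMAL1 peak of 13.5, beside a BMAL1 peak of 29 at chr3:196361160-196361556. This pair had the largest gap in score, and CLOCK was listed at its weaker peak.

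The last 3 pairs had CLOCK scores of 20 or less. At chr3:129312491-129312887 CLOCK scored 20 and BMAL1 16, beside chr3:129311500-129311896 with 12.5. At chr17:43489018-43489414 CLOCK scored 20 and BMAL1 11, beside chr17:43487869-43488265 with 18.5. At chr4:3374485-3374881 CLOCK scored 18.5 and BMAL1 12, beside chr4:3371611-3372007 with 10.5. Over the 9 pairs the overlapped peak had the higher BMAL1 score in 5 and the lower in 4. The median BMAL1 score was 16 for overlapped peaks and 15.5 for their neighbours. In these 9 pairs the BMAL1 score thus did not mark which peak was listed for CLOCK, but 9 pairs are too few to exclude a link.

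**Figure D3:**
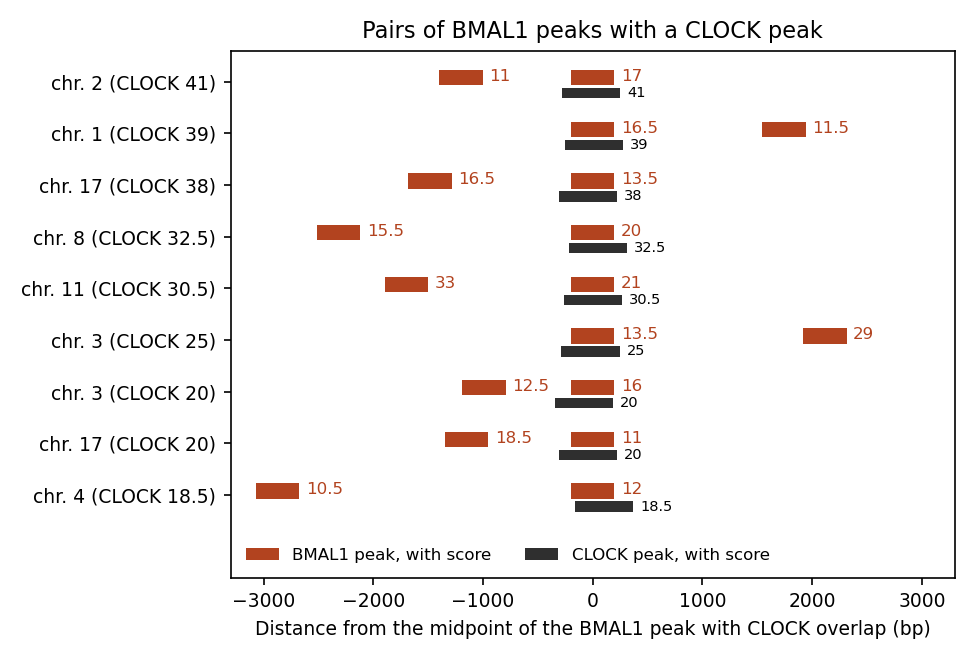
The 9 pairs of BMAL1 peaks (red) with a CLOCK peak (black), drawn to scale by distance in bp from the midpoint of the overlapped BMAL1 peak (horizontal axis). Rows are ordered by CLOCK score, and numbers give the score of each peak. CLOCK peaks lie over 1 BMAL1 peak of each pair and leave the other, 991 to 2874 bp away, uncovered. At these gaps a CLOCK peak of at most 533 bp cannot reach both.

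The overlap counted here by itself keeps CLOCK and BMAL1 midpoints close, as clustered peaks spanned 397 bp and CLOCK peaks at most 533 bp. In the 9 pairs the distances between these midpoints had a median of 42 bp and extremes of 2 and 105 bp. For the 99 isolated peaks with CLOCK the median was 53 bp and the greatest value 463 bp. Extremes of 9 and of 99 peaks are not comparable. The median CLOCK score was 30.5 in the pairs (lowest 18.5, highest 41) and 24.5 at isolated peaks (lowest 18, highest 92.5). The range at isolated peaks thus holds that of the pairs. The neighbour in each pair was 911 to 2979 bp from the CLOCK midpoint. The CLOCK list itself held no 2 peaks within 5000 bp (closest midpoints 8974 bp apart). Neighbours this close could thus not each have had a CLOCK peak of their own. A single CLOCK peak could reach both neighbours only at the shortest gaps, and no cluster had more than 1 overlapped peak.

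All 9 pairs with CLOCK were among the closer ones, with gaps of 991 to 2874 bp. Among the 421 clusters of just 2 peaks, both below 40, 9 of 276 with a gap of up to 3000 bp held a CLOCK peak (3.26%, exact 95% interval 1.5 to 6.10%). Of the 145 such clusters with a gap of more than 3000 and up to 5000 bp 0 did, which allows a share of up to 2.07% by the limit of 3 counts. The limit of 3000 bp was chosen after these gaps were seen, and the difference was not tested. The values that follow are per peak, not per pair. By distance to the nearest BMAL1 midpoint, CLOCK overlapped 1 of 61 peaks up to 1 kb (1.64%). From 1 to 2 kb the share was 1.51%, from 2 to 3 kb 1.41%, and from 3 to 5 kb 0 of 323. Farther out the share did not stay at 0. Of 834 peaks whose nearest BMAL1 midpoint was more than 5 and up to 10 kb away, 14 were overlapped (1.68%, exact 95% interval 0.921 to 2.80%). Per peak, the shares up to 3 kb were thus no higher than the share from 5 to 10 kb.

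Clustered peaks had somewhat higher BMAL1 scores than isolated ones. The median score was 15.5 for clustered peaks (quartiles 12.375 and 21) and 14 for isolated peaks (quartiles 11.5 and 19). Both sets ran from 10 to 39.5. Scores of 20 or more made up 28.7% of clustered and 22.4% of isolated peaks, and scores below 15 made up 45.2% and 54.6%. The 2 sets overlapped over their whole range. The median was 18.25 for the 64 clustered peaks in clusters of 3 or 4, and 26.25 for the 24 joined to a peak of 40 or more. In the last group only 1 peak scored below 15. That peak, chr17:74049475-74049871 with 13, was linked to its peak of 50.5 only through a peak of 29 between them. Within 5 kb no score was more than 3.08 times that of its neighbour, as described below. The part of that pattern in the median of 26.25 was not tested.

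**Figure D4:**
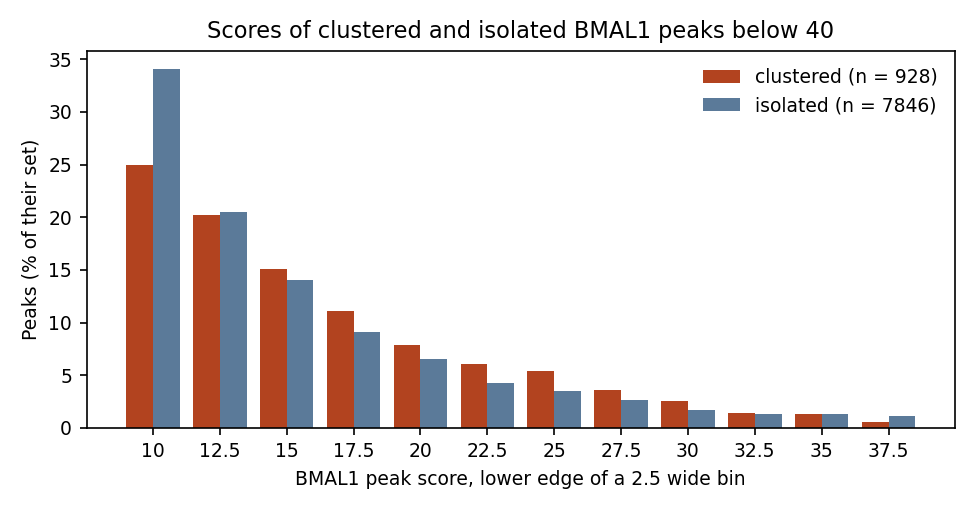
Distribution of BMAL1 scores below 40 for 928 clustered (red) and 7846 isolated (blue) peaks. The vertical axis gives the percent of each set in bins 2.5 score units wide, and the horizontal axis the lower edge of each bin. The lowest bin holds 25.0% of clustered and 34.1% of isolated peaks, and both sets reach the highest bin.

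The score fell slowly with the distance to the nearest BMAL1 peak. Medians were 15 to 16.5 in the 4 distance groups up to 5 kb and 15 from 5 to 10 kb. They were 14.5 from 10 to 50 kb, 14 from 50000 to 100000 bp and 13.5 beyond. No step was seen in these medians at the joining distance of 5000 bp.

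Neighbours within a cluster had similar scores, and this likeness did change at about 5000 bp. The higher score was at most 3.08 times the lower one in all 494 neighbouring pairs within 5000 bp, peaks of 40 or more included. In the 499 pairs more than 5 and up to 10 kb apart it reached 6.67 times. A ratio of 3 or more was found in 3 pairs within 5 kb (0.607%) and in 35 pairs beyond (7.01%). A ratio of 2 or more was found in 53 (10.7%) and 114 (22.8%). The change fell between neighbouring steps of 1 kb, as the share with a ratio of 2 or more was 6.90% from 4 to 5 kb and 20.2% from 5 to 6 kb. The steps below 5 kb held at most 13.0%, and those from 5 to 10 kb at least 20.2%. The 3 widest ratios within 5 kb were 57 against 18.5 on chromosome 9 (chr9:35647233-35647629 and chr9:35649326-35649722), 173.5 against 57 on chromosome 5 (chr5:400106-400502 and chr5:403208-403604), and 54 against 18 on chromosome 16 (chr16:50310793-50311189 and chr16:50315767-50316163). They all stood at about 3. A peak of 40 or more next to one below 40 was found in 23 of the pairs within 5 kb and in 50 of those from 5 to 10 kb. This pattern was seen only after the values were examined. HOMER, the caller named in the lists, can compare each peak with the signal around it. No source used here says whether this was done or with which settings, and its part in these values was not tested.

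**Figure D5:**
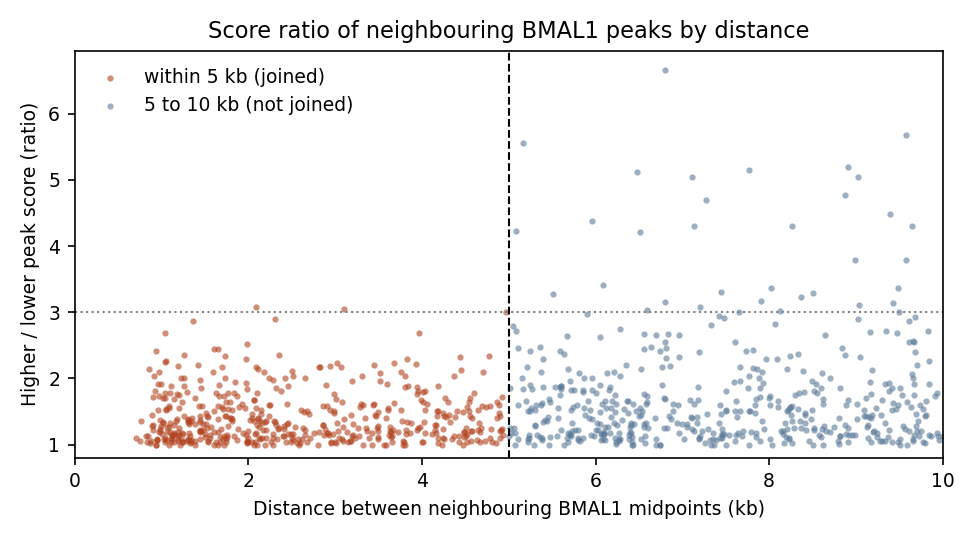
Ratio of the higher to the lower score (vertical axis) of each pair of neighbouring BMAL1 peaks of any score, by the distance between their midpoints (horizontal axis, kb), chromosome 19 left out. Red points are pairs within 5 kb and blue points pairs from 5 to 10 kb; the dashed line marks 5 kb and the dotted line a ratio of 3. The red points stay at or below 3.08, while blue points reach 6.67.

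The same was seen among low scores alone. For 464 neighbouring pairs within 5 kb with both peaks below 40, the scores were correlated with Pearson r = 0.36 and Spearman rho = 0.35. For 445 such pairs from 5 to 10 kb these were 0.07 and 0.06, and for 690 pairs from 10 to 20 kb they were 0.01 and -0.01. Without chromosome 1, r was 0.31 in 404 pairs within 5 kb and 0.00 in 370 pairs from 5 to 10 kb. The median difference in score was 4 units within 5 kb and 5.5 units from 5 to 10 kb. These points share 1 library, and a peak between 2 others enters 2 pairs, so the correlations are descriptions. Among the 421 clusters made up of just 2 peaks below 40, 150 had scores within 2 units of each other and 39 had 1 score at least 2 times the other. Both peaks scored 20 or more in 45 and below 15 in 119.

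Clustered peaks also had more BMAL1 peaks in their wider surroundings. Between 5 and 50 kb from the midpoint, clustered peaks had a median of 1 other BMAL1 peak (quartiles 0 and 2, mean 1.16) and isolated peaks a median of 0 (quartiles 0 and 1, mean 0.846). None was found there for 37.3% of clustered and 50.5% of isolated peaks, and without chromosome 1 for 37.9% and 51.5%. These counts include peaks of the same cluster more than 5 kb away, which only the 64 clustered peaks in clusters of 3 or 4 can have. The peaks of a pair also share most of their surroundings, so they are not independent. Density of BMAL1 peaks along the genome thus moved with membership, and its part in the results above was not tested.

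Clusters were found on every chromosome examined. Chromosome 1 held the most, 124 clustered peaks in 64 clusters, or 11.4% of its 1087 peaks below 40. Over all chromosomes examined the share was 10.6%. Chromosome 10 had the highest share among those with over 100 peaks below 40, 68 of 458 (14.8%). Chromosome 4 had the lowest, 20 of 332 (6.02%). These are the extremes of the values that chose the peaks and are given as a description. The 9 pairs with CLOCK were spread over chromosomes 1, 2, 3, 4, 8, 11 and 17, with 2 pairs each on chromosomes 3 and 17. All other chromosomes examined, chromosome 10 included, had none, with a share of 0.970% over all clustered peaks.

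The values just inside and just outside the limits were as follows. The highest-scoring clustered peaks were chr14:50527709-50528105 with 39.5, chr3:47356501-47356897 with 39 and the chromosome 7 peak of 38.5 named above. The lowest-scoring linked peaks left out by the score limit were chr4:25971975-25972371 and chr6:36821201-36821597 with 40 each, and chr1:28211316-28211712 with 40.5. At the distance limit, the widest accepted gaps were 4974 bp at chr16:50315767-50316163, with a score of 18, and 4934 bp between chr2:86012562-86012958 and chr2:86017496-86017892, with 15.5 and 13.5. The narrowest gaps left out were 5003 bp between chr15:33153822-33154218 and chr15:33158825-33159221, with 12 and 13.5, and 5013 bp between chr5:40486731-40487127 and chr5:40491744-40492140, with 26 and 14.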

How the data were processed

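Peak lists of BMAL1 and CLOCK in THP-1 cells were used, 1 library each. The authors deposited 1 score per peak, with no unit, threshold or control stated, and the lists name HOMER as caller. Build hg19 and the tools HOMER 4.7.2, Bowtie 0.12.7, Picard and SAMtools 1.2 are listed without roles in the submitters' processing notes. HOMER can merge near peaks and filter them against local signal; no source used here gives its settings. Both could shape spacing and scores in clusters.

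BMAL1 peaks of any score were chained where neighbouring midpoints lay within 5000 bp, and peaks below 40 outside chromosome 19 were counted as members. A CLOCK overlap needed at least 1 bp. Shares have exact Clopper-Pearson 95% intervals, differences Newcombe intervals, and a count of 0 is given the limit of 3 counts; all cover counting error only. No p-value was computed, as each factor had 1 library and peaks are not replicates. Clusters named are the 10 with the most peaks (ties by members, then summed score), the 10 with the highest-scoring CLOCK peak (9 existed), the 5 highest-scoring members with CLOCK, and peaks nearest each limit. Other regions were chosen after their values were seen. The members and lists were chosen with earlier results of these data known. Planned gene names and E-box sequences needed an hg19 annotation and genome and were not run. Chaining and overlap counts were tested on simulated data, and 5 of 5 draws were recovered exactly. Figures were drawn with matplotlib 3.10.9 and values computed with scipy 1.17.1, pandas 2.3.3 and numpy 2.4.6 in Python 3.11.15.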

Additional observations from a re-analysis of the deposited data

How the results depend on the processing

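Of 69 recomputed values for 6 results, 56 stayed within 1.5 times the count, the 95% interval or 0.5 score units of the value reported, and 13 moved further. Joining peaks within 1000, 2000 or 10000 bp gave 61, 392 and 1762 clustered peaks in 31, 201 and 850 clusters, as the distance sets their number. Keeping only scores of 15 or more left 349 clustered peaks in 183 clusters, raised the isolated CLOCK share to 1.69%, and moved the difference in share, clustered minus isolated, to -1.12 percentage points. With scores below 20 the isolated share was 0.969% and the median score of clustered peaks exceeded that of isolated ones by 0.5, against 1.5. Requiring a CLOCK midpoint within 100 bp gave an isolated share of 0.854%. Over 13 settings the difference in CLOCK share ran from -1.12 to 0.41 percentage points and was below 0 in 8. Its interval held 0 in all 13.

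No paired analysis was possible because the libraries with shared replicate numbers, all NOMO-1, have no peak list used here. Depth is unknown, so a CLOCK peak missing from the list does not show that a site was unbound.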
